A study of Neurospora crassa with 24 samples.

Results

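The mRNA accumulation of 7 genes for the metabolism of trehalose and glycogen was followed in the Δve-1 mutant and the wild type of the fungus Neurospora crassa. The genes were selected by identifier and make up 7 of the 9758 genes in the table of counts: tps-1 (NCU00793), NCU05041, tre-1 (NCU00943), gnn (NCU06698), gsn (NCU06687), gbe (NCU05429) and gpn (NCU07027). All 7 passed the filter on low counts in every fit. The mutant carries a deletion of ve-1, which encodes the velvet protein VE-1, a regulator of development. It came from a collection of knockout strains made in the OR74A background of the wild type, and no other allele of ve-1 was sequenced. Cultures were sampled at 3 stages. A15 was the tissue that had grown into the air by 15 h of conidiation, hyphae and young conidia together, and V was vegetative mycelium of 48 h in liquid. In each of A15 and V there were 4 groups of 2 libraries: the mutant with 30 min of light before collection, the mutant kept in the dark, the wild type with the same light, and the wild type kept in the dark. Liquid cultures kept dark for 24 h (S), the material from which conidiation is induced, had 4 libraries of the mutant and 4 of the wild type, which makes 24 libraries in 10 groups. The questions were whether the loss of VE-1, light and conidiation changed the accumulation of these mRNAs.

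Trehalose is a nonreducing glucose disaccharide that many fungi accumulate in their conidia, where it protects against heat and drying and is used as a carbon source in germination. Trehalose phosphate synthase joins the glucose units, and trehalase splits the sugar into glucose again. Glycogen is a branched polymer of glucose that starts on the protein glycogenin, is extended by glycogen synthase and branched by the branching enzyme, and is broken down by glycogen phosphorylase, which releases glucose 1-phosphate.

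Positions are those of the NC12 assembly as the table of counts gives them, and no exon or UTR was separated. tps-1 lies on chromosome I, positions 7151166 to 7155148, plus strand. tre-1 lies on the same chromosome, positions 6632519 to 6635173, plus strand. gnn and gsn lie on chromosome V, at 4316579 to 4320011 on the minus strand and at 4278032 to 4282081 on the plus strand. gbe lies on chromosome II, positions 1607466 to 1611047, plus strand, and gpn on chromosome IV, positions 4959082 to 4962268, minus strand. NCU05041 lies on chromosome VI, positions 3957084 to 3961803, minus strand. It was selected under the name ccg-9, but the RefSeq table gives that symbol to NCU09559, so NCU05041 is given here by its identifier and no function is named for it. RefSeq lists gsn under gsy-1 with gsn as a synonym, and the symbols gbe and gpn came with the selection. NCU05041, tre-1 and gnn overlap a gene on the other strand by 564, 78 and 157 bases. Reads were counted with a strand setting.

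Depth ranged between 14010994 and 21885041 counts for a library (median 16040218.5), so that 3 counts, taken as the smallest amount that can be told from 0, were 0.137 to 0.214 CPM (counts per 1000000 counts of the library, with library sizes scaled by the TMM method over the 24 libraries). Such limits cover counting error only. The ve-1 mRNA was at 0.785 to 2.82 CPM in mutant A15 libraries and 139 to 210 CPM in wild-type A15 libraries, and at 2.58 to 6.92 CPM in mutant V libraries and 137 to 219.9 CPM in wild-type V libraries. In S, it was at 17.3 CPM in replicate 1 of the mutant and 1.28 to 3.18 CPM in the other mutant libraries, against 69.3 to 93.9 CPM in the wild type, so that this mutant library stands apart from its group. Of 6 markers of aerial hyphae and conidia (eas, con-6, con-8, con-10, con-13 and fl), all were higher in A15 than in S in each strain and light condition. For 4 of the 6, every A15 library was above every V and S library, and con-13 was at 0 in all 4 mutant V libraries. In the wild type, V after light overlapped A15 in the dark for con-6 (787.5 to 1178 against 527.4 to 1028 CPM) and con-10 (104 to 308.3 against 245.4 to 607.2 CPM). The summed level of the 6 markers in A15 was also higher in the mutant. In the dark it was 151000 to 179000 CPM in the mutant and 55500 to 65200 CPM in the wild type. After light it was 97200 to 134000 CPM in the mutant and 36500 to 95000 CPM in the wild type. Most of the sum in A15 was eas, which in the dark was at 144300 to 172300 CPM in the mutant and 52760 to 63680 CPM in the wild type. In S, the sum was 56.3 to 519 CPM in the mutant and 61 to 195 CPM in the wild type. In the wild type, the S libraries numbered 3 and 4 in their codes differed from those numbered 1 and 2 for most genes, as given further on. In the mutant, fewer genes separated in this way. All 7 light-induced genes used as a check (al-1, al-2, al-3, phr, bli-4, frq and vvd) rose after light in V in both strains. In A15, none of these check genes was called by light in either strain. Yet in wild-type A15, vvd was at 270 to 270.5 CPM after light and 8.73 to 8.74 CPM in the dark. Libraries of a group came from samples labelled as replicates. The methods speak of independent biological replicates for RNA quantification in general, and P values measure the spread between these samples.

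tre-1, which encodes trehalase, covered the widest range of the 7 genes, and nearly all of it lay between stages. In A15, the mutant had 186 and 270.1 CPM after light and 132 and 365 CPM in the dark, and the wild type had 52.2 and 116 CPM after light and 124 and 65.5 CPM in the dark. In S, the 4 mutant libraries had 1.69, 5.98, 0.636 and 0.999 CPM, and the 4 wild-type libraries had 3.3, 3.03, 0.608 and 0.321 CPM. Every A15 library was far above every S library, in which the gene was at most a few CPM. The mRNA rose in A15 over S in all 4 comparisons: 106-fold in the mutant in the dark (log2FC of 6.73 ± 0.88 [SE], adjusted P = 3.52e-05), 95.7-fold in the mutant after light (6.58 ± 0.88, adjusted P = 3.49e-05), 53.3-fold in the wild type in the dark (5.74 ± 0.86, adjusted P = 0.000185) and 46.9-fold in the wild type after light (5.55 ± 0.85, adjusted P = 0.000207). These calls held under each alternative setting and without any 1 of the libraries, mutant S replicate 1 included. In bulk tissue, more cells of a type and more mRNA in each cell cannot be told apart, and the aerial markers rose in the same comparisons. Their part in the rise was not tested.

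The trehalase gene was also the only 1 of the 7 whose mRNA changed in the mutant in vegetative mycelia by the test of edgeR. After light, V had 4.61 and 8.28 CPM in the mutant, against 1.36 and 1.32 CPM in the wild type. Without light, it had 8 and 14.8 CPM in the mutant, against 1.87 and 1.94 CPM in the wild type. The mutant libraries were above the wild-type libraries without overlap in both conditions, at levels that were still far below those of aerial tissue. Here and below, groups of 2 libraries can separate without a difference. The share of all genes that separated between such groups was not counted. The rise was 4.82-fold after light (log2FC of 2.27 ± 0.41, adjusted P = 0.0105) and 5.97-fold in the dark (2.58 ± 0.38, adjusted P = 0.00391). The call was lost without replicate 2 of the light-exposed mutant (1.78, adjusted P = 0.0559) and without replicate 2 of the wild type in the dark (2.61, adjusted P = 0.0522). It was also lost in a fit of all 24 libraries, which has a larger dispersion (2.25, adjusted P = 0.651, and 2.58, adjusted P = 0.469). The summed level of the aerial markers was not higher in these mutant libraries. Without light, the mutant had 19 to 20.4 CPM, against 25.4 to 29.8 CPM for the wild type. After light, the mutant had 598 to 872 CPM, against 1010 to 1690 CPM for the wild type. Most of the sum in dark mutant V was fl (15.44 to 16.29 CPM). After light most of it was con-6 (503.3 to 733.4 CPM), which itself rose with light (1.864 to 2.733 CPM without it). eas was at most at 0.3378 CPM in mutant V. The sum is therefore a poor measure of aerial tissue in V, and a part of such tissue in the tre-1 rise was not tested. In A15, tre-1 averaged 2.62-fold higher in the mutant in the dark, but the difference did not pass the test (1.39 ± 0.60, adjusted P = 0.256), nor did that after light (1.37 ± 0.60, adjusted P = 0.234). Without replicate 1 of the mutant in the dark, the difference in the dark passed it (1.94, adjusted P = 0.0447). In S, the log2FC was 0.36 ± 0.72 (adjusted P = 0.861), with libraries that overlapped.

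**Figure D1:**
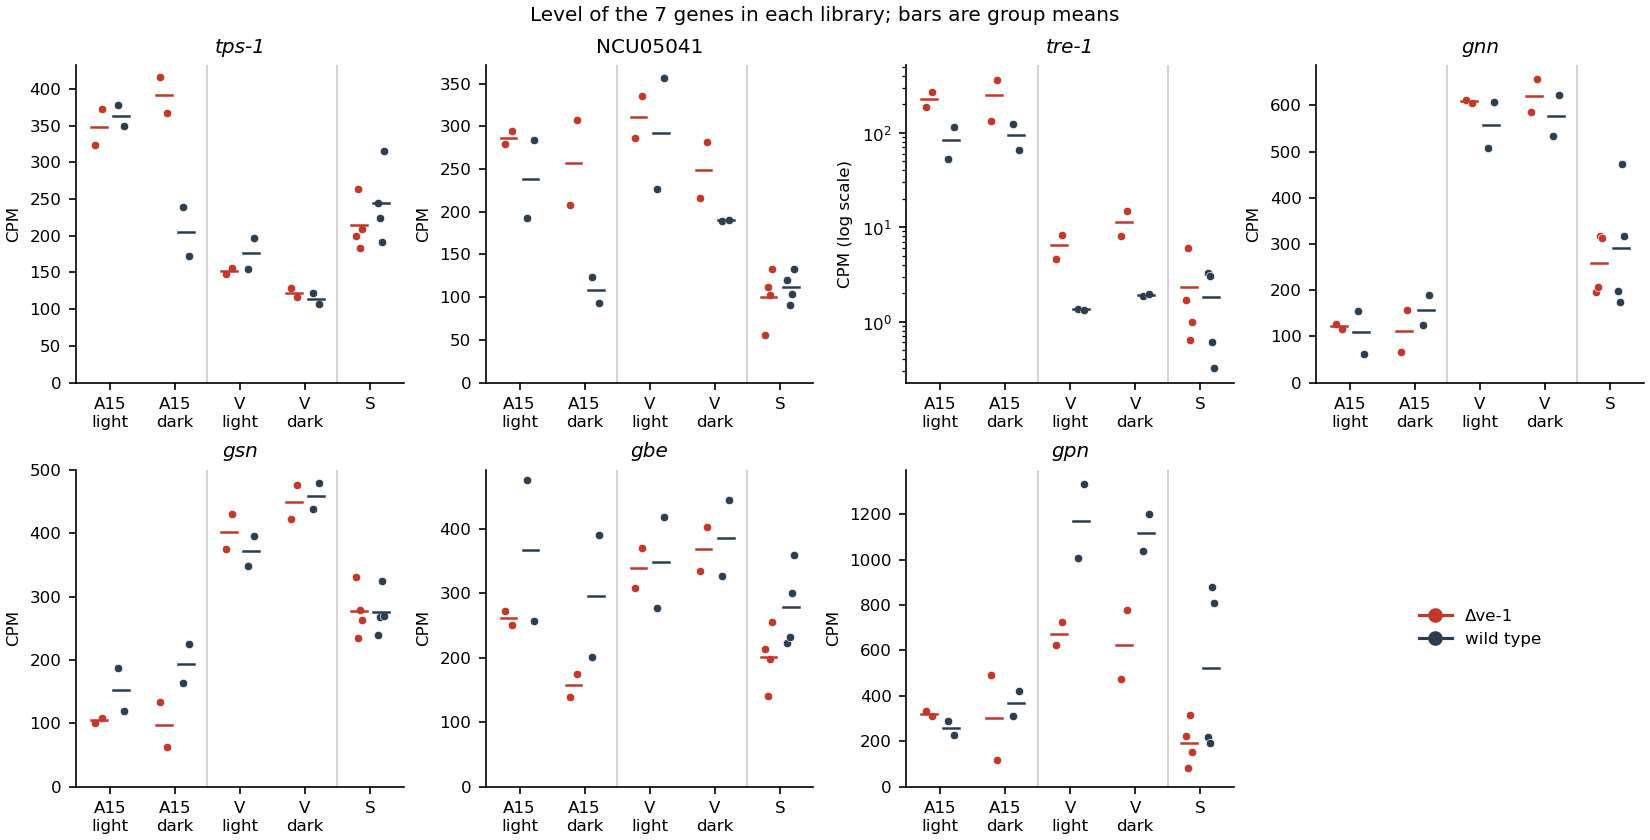
Level of each of the 7 genes in every library (CPM, TMM-scaled; log scale for tre-1, linear from 0 for the others), by stage and light, with Δve-1 (red) left of the wild type (dark blue); bars are group means (n = 2, and n = 4 in S). tre-1 lies between 52.2 and 365 CPM in A15 and below 14.9 CPM in V and S, gnn and gsn are lowest in A15, and gpn in V is at 472 to 777 CPM in the mutant and 1006 to 1334 CPM in the wild type.

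Between the strains or by light, at most 1 of the 7 was called in any comparison (adjusted P under 0.05 in the quasi-likelihood test of edgeR). With only 7 genes, such counts cannot be told apart from the shares over all genes given beside them. Between mutant and wild type, 1 of 7 was called in V in the dark, where 9.79% of all genes tested were called, and 1 of 7 in V after light, where 10.3% were called. None was called in S (0.655% of all genes called; 1 of 7 at an unadjusted P under 0.05, 0 by DESeq2), in A15 in the dark (3.08%; 4 of 7 unadjusted, 2 by DESeq2) or in A15 after light (4.65%; 1 of 7 unadjusted, 0 by DESeq2). Over all genes, the unadjusted P was under 0.05 for 1397 of 8239 in S. It was for 1560 of 8193 in A15 in the dark and 1744 of 8193 in A15 after light. By DESeq2, 405 genes were called in S, 851 in A15 in the dark and 1044 in A15 after light. For light against dark in V, none was called in the mutant (12.8%; 1 of 7 unadjusted, 0 by DESeq2) and 1 of 7 in the wild type (15.4%). In the mutant, 1881 of all 7760 genes were under 0.05 unadjusted, and DESeq2 called 1002. For light against dark in A15, none was called in the mutant (0 of 7 unadjusted, 0 by DESeq2) or the wild type (2 of 7 unadjusted, 0 by DESeq2), and edgeR called 0% of all genes in both (at an unadjusted P under 0.05, 1004 for the mutant and 759 for the wild type; by DESeq2, 285 for the mutant and 222 for the wild type). The light-induced check genes were not called there either, so a lack of calls in A15 does not show a lack of response to light.

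More of all genes were called in A15 against S than between the strains or by light. Among the 7 the counts did not follow conidiation alone, since the mutant had as many calls in dark V as in dark A15 against S. For A15 in the dark against S, 3 of the 7 rose and 1 fell in the mutant, where 44.3% of all genes were called, and 1 rose in the wild type, where 27% were called. For A15 after light against S, 2 rose and 1 fell in the mutant (45.8% of all genes) and 2 rose and 1 fell in the wild type (32.8%). For V in the dark against S, 3 rose and 1 fell in the mutant (13% of all genes), and 1 fell in the wild type (10.6%). V and S differ in age, culture and experiment together, and the sources disagree on whether they also differ in temperature; these cannot be told apart. A15 differs from S in age and in growth on solid medium, which cannot be told apart from conidiation. All S libraries were kept dark, so that A15 after light also differs from S by light. The comparisons with S of a strain share its 4 S libraries, so that their calls are not separate evidence. The median log2FC of the 7 genes in A15 in the dark against S was 0.636 for the mutant, where that of all genes tested was 0.103, and −0.213 for the wild type, where that of all genes was 0.0162.

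Tests of whether the strains differed in their response gave no call for the 7 genes. The interaction of strain and light called 0% of all genes by edgeR in V (189 at an unadjusted P under 0.05, 2 by DESeq2) and in A15 (201 unadjusted, 2 by DESeq2), and none of the 7 genes was below 0.05 before adjustment in either. The interaction of strain and stage called 0.0243% of all genes for A15 in the dark and 0.0728% for A15 after light. In the dark, 1047 of all 8239 genes were under an unadjusted P of 0.05. Among them were 3 of the 7 genes: NCU05041 (1.37 ± 0.48, adjusted P = 0.273), tps-1 (1.08 ± 0.40, adjusted P = 0.301) and gsn (−1.03 ± 0.47, adjusted P = 0.386). After light, 1028 of all 8239 genes were and none of the 7. DESeq2 called 0 of the 7 in each of the 4 interactions, and 189 of all genes for stage in the dark and 226 after light. A call in the mutant and none in the wild type, as described for single genes below, is therefore not shown to be a difference between the strains.

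**Figure D2:**
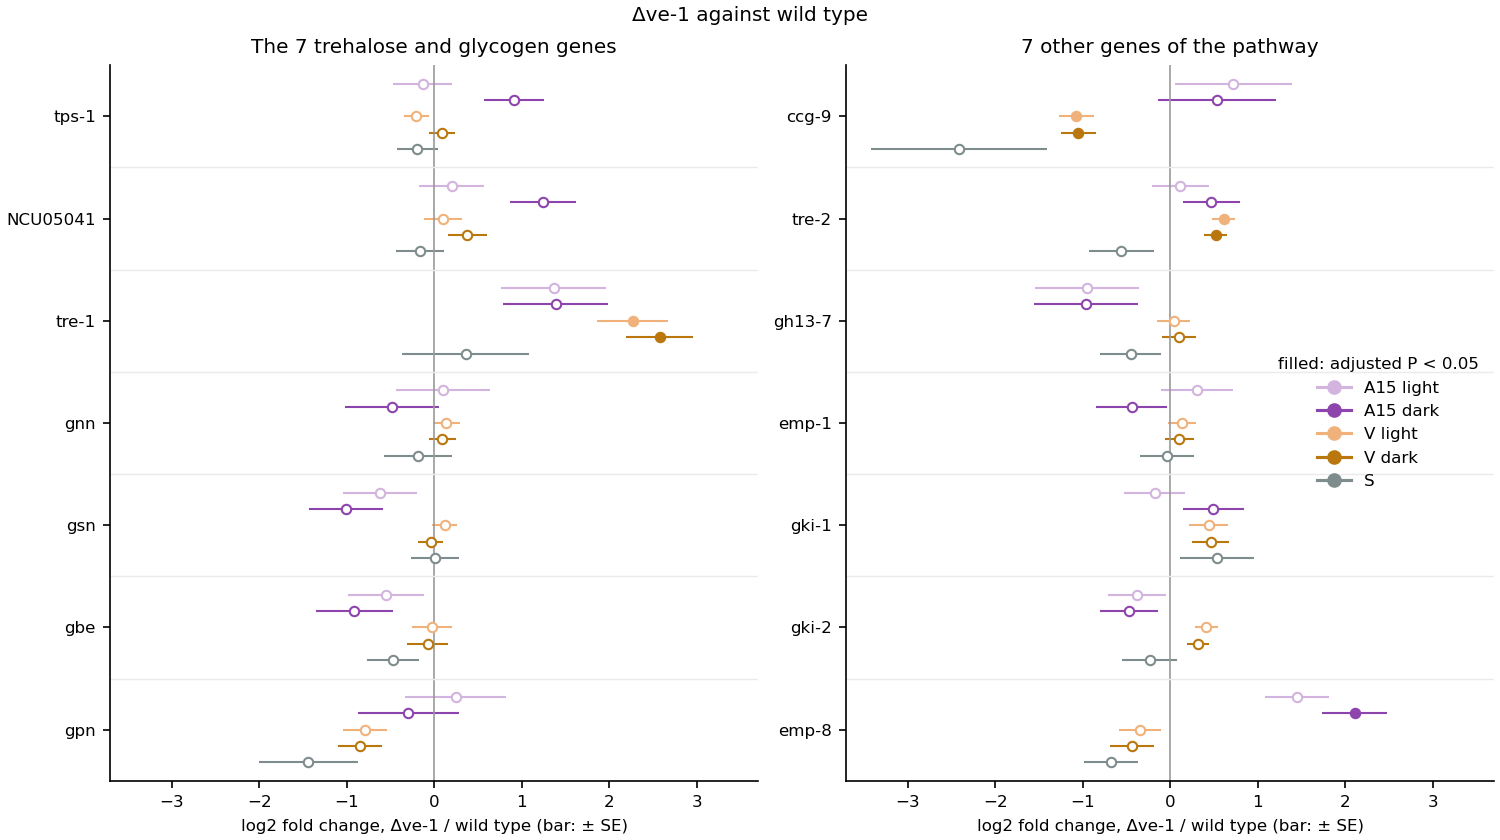
Difference between the strains for the 7 genes (left) and 7 other genes of the pathway (right): log2FC of Δve-1 over wild type with its SE, for A15 after light, A15 in the dark, V after light, V in the dark and S; filled points have an adjusted P under 0.05. Among the 7 genes, tre-1 in V is filled (2.27 and 2.58), and the points of gpn lie below 0 in V and S (−0.79, −0.85 and −1.44) without passing the test.

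tps-1, which encodes trehalose phosphate synthase, was highest in aerial tissue other than that of the wild type in the dark. In A15, the mutant had 324 and 373 CPM after light and 417 and 367 CPM in the dark, and the wild type had 378 and 349 CPM after light and 239 and 172 CPM in the dark. In V, the mutant had 148 and 156 CPM after light and 129 and 116 CPM in the dark, and the wild type had 154 and 197 CPM after light and 122 and 107 CPM in the dark. The S averages lay between, with libraries at 199, 264, 183 and 209 CPM in the mutant and 245, 225, 192 and 316 CPM in the wild type. In the mutant, tps-1 rose in A15 in the dark over S (log2FC of 0.87 ± 0.28, adjusted P = 0.0196). Its value after light was 0.68 ± 0.28 (adjusted P = 0.059), and in the wild type it was −0.21 ± 0.29 in the dark (adjusted P = 0.623) and 0.59 ± 0.28 after light (adjusted P = 0.121). The call in the mutant was lost, at a similar size, without replicate 1 of the dark A15 mutant (0.77, adjusted P = 0.0856) or replicate 3 of the mutant S libraries (0.81, adjusted P = 0.0539).

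The strains did not overlap for tps-1 in A15 in the dark, where the mutant averaged 1.89-fold higher (0.92 ± 0.34), which did not pass the test (adjusted P = 0.187). Light in V gave a rise in the wild type (0.61 ± 0.14, adjusted P = 0.0208), the only call by light among the 7 genes. This call was lost without replicate 1 or 2 of the dark group (0.70, adjusted P = 0.059, and 0.52, adjusted P = 0.128) or replicate 2 of the light group (0.42, adjusted P = 0.12). In the mutant, the libraries after light were also above those in the dark, by 0.32 ± 0.14 (adjusted P = 0.214). V in the dark was below S in both strains (mutant −0.81 ± 0.25, adjusted P = 0.0381; wild type −1.09 ± 0.25, adjusted P = 0.00947), and tps-1 was the only 1 of the 7 genes that fell in V. The call in the wild type was lost without either dark V library of that strain (−1.19, adjusted P = 0.0804, and −1.01, adjusted P = 0.162). The call in the mutant was lost without either dark V library of the mutant (−0.89, adjusted P = 0.166, and −0.73, adjusted P = 0.325), and without replicate 2 of the mutant S libraries (−0.69, adjusted P = 0.0749).

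NCU05041 was low in S and in dark aerial tissue of the wild type, and higher elsewhere. A15 had 279 and 295 CPM in the mutant after light and 208 and 307 CPM in the mutant in the dark, whereas the wild type had 193 and 284 CPM after light and 123 and 93 CPM in the dark. V had 287 and 336 CPM in the mutant after light and 216 and 281 CPM in the mutant in the dark, whereas the wild type had 227 and 357 CPM after light and 189 and 191 CPM in the dark. S had 56, 112, 102 and 132 CPM in the mutant and 119.6, 91.2, 104 and 133 CPM in the wild type. The gene rose in A15 over S in the mutant after light (1.50 ± 0.32, adjusted P = 0.00172) and in the dark (1.36 ± 0.32, adjusted P = 0.00364), and in the wild type after light (1.11 ± 0.33, adjusted P = 0.0169). In the wild type in the dark the log2FC was −0.01 ± 0.34 (adjusted P = 0.986). V in the dark was above S in the mutant (1.30 ± 0.30, adjusted P = 0.0085), and the wild type had a log2FC of 0.76 ± 0.30 (adjusted P = 0.11).

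For NCU05041, the call in the mutant in A15 after light held with each of its 6 libraries left out (adjusted P of at most 0.0184). The other 3 calls depended on single libraries. The call in the mutant in the dark was lost without replicate 2 of that A15 group (1.06, adjusted P = 0.0534). That in the wild type after light was lost without replicate 2 of its A15 group (0.78, adjusted P = 0.232). The call in V was lost without replicate 2 of the dark mutant (1.10, adjusted P = 0.165). Between the strains in A15 in the dark, the mutant averaged 2.37-fold higher with no overlap (1.24 ± 0.38), short of the threshold by edgeR (adjusted P = 0.117) and past it by DESeq2 (1.23, adjusted P = 0.0238), in the fit of all libraries (1.25, adjusted P = 0.0471) and without replicate 1 of the mutant (1.50, adjusted P = 0.032). DESeq2 also called tps-1 there (0.90, adjusted P = 0.0471). The aerial marker sums of these dark A15 libraries, given above, differ between the strains in the same direction, though 0 of the 6 markers was called between the strains by edgeR in A15. Their part in these differences was not tested.

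**Figure D3:**
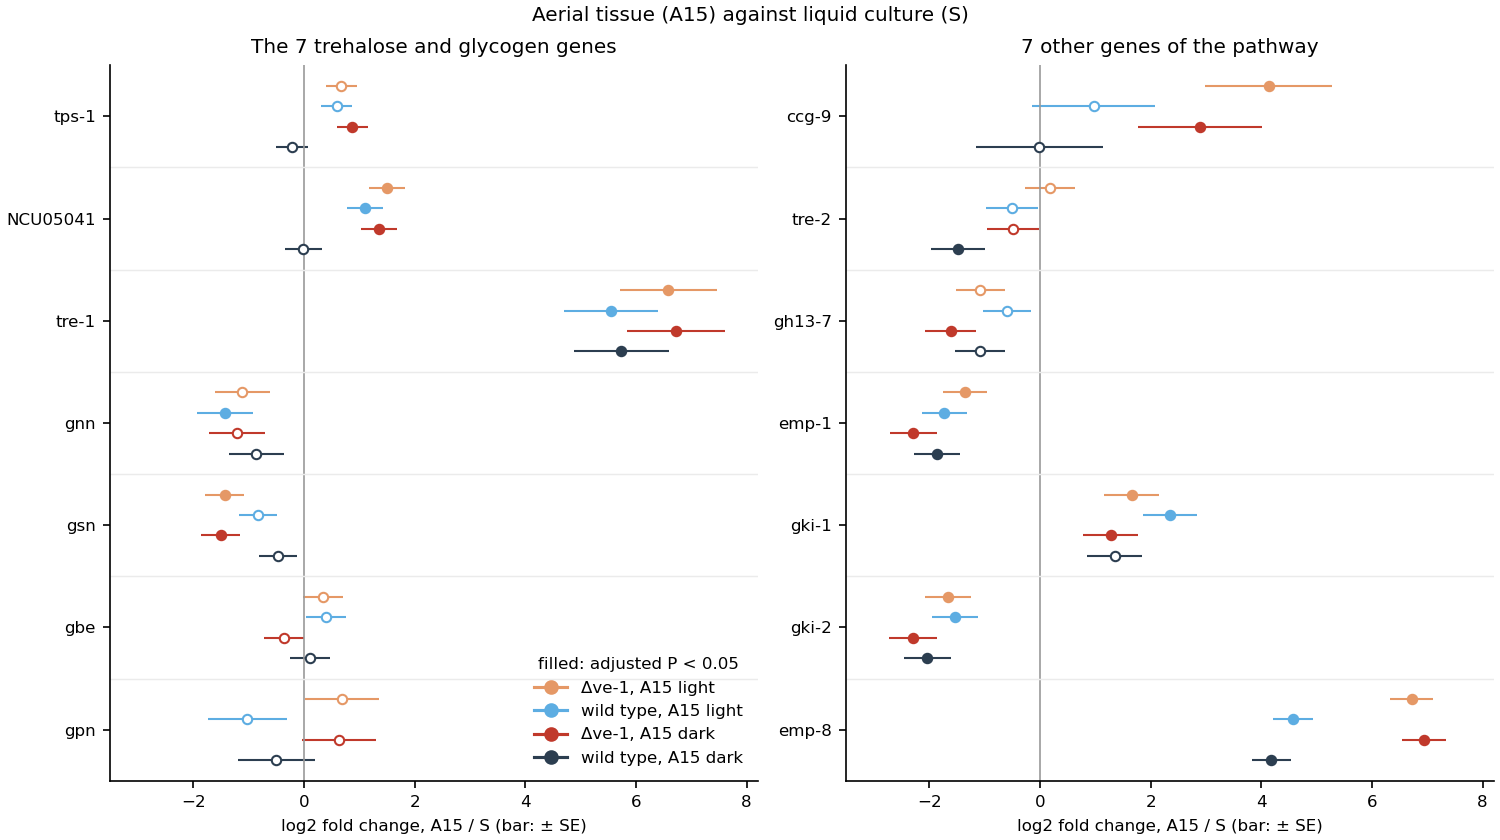
Aerial tissue against liquid culture for the 7 genes (left) and 7 other genes of the pathway (right): log2FC of A15 over S with its SE in Δve-1 and the wild type, after light and in the dark; filled points have an adjusted P under 0.05. tre-1 stands between 5.55 and 6.73 in all 4 comparisons, gnn and gsn lie below 0 in all 4, and emp-8 stands between 4.18 and 6.94.

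The genes that start and extend glycogen were lowest in aerial tissue and highest in 48-h mycelia. gnn, which encodes glycogenin, had 128 and 116 CPM after light and 67.2 and 158 CPM in the dark in the A15 mutant, and 156 and 61.4 CPM after light and 125 and 189.6 CPM in the dark in the A15 wild type. In V, the mutant had 613 and 606 CPM after light and 585 and 657 CPM in the dark, and the wild type had 507 and 606 CPM after light and 533 and 622 CPM in the dark. In S, the mutant had 197, 207, 317 and 313 CPM and the wild type 198, 174, 473 and 318 CPM. Every V library was thus above every S and A15 library, while the highest A15 library of the wild type (189.6 CPM) was above the lowest S library of that strain (174 CPM). gnn fell in A15 after light in the wild type (−1.43 ± 0.51, adjusted P = 0.0442), and the other 3 comparisons with S were between −1.21 and −0.87 without passing the test of edgeR. In the mutant, DESeq2 called gnn in the dark (−1.17, adjusted P = 0.0407), and the fit of all libraries called it in the dark (−1.20, adjusted P = 0.0293) and after light (−1.09, adjusted P = 0.0441). The call in the wild type was lost with unscaled library sizes (−0.78, adjusted P = 0.213), without replicate 2 of the light-exposed A15 group (−0.92, adjusted P = 0.367), without S replicate 3 (−1.07, adjusted P = 0.106) and without S replicate 4 (−1.38, adjusted P = 0.0741). V in the dark was above S in the mutant (1.26 ± 0.40, adjusted P = 0.0458), a call lost without mutant S replicate 1 (1.15, adjusted P = 0.0882), 2 (1.17, adjusted P = 0.0837) or 3 (1.37, adjusted P = 0.0505) and without either V library (1.34, adjusted P = 0.156, and 1.18, adjusted P = 0.289). Among the wild-type libraries the log2FC was 0.99 (adjusted P = 0.125). Between the strains, gnn was not called, and the 5 log2FC values were between −0.48 and 0.14.

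gsn encodes glycogen synthase, which extends the chains. In A15, the mutant had 101 and 109 CPM after light and 133 and 62.3 CPM in the dark, and the wild type had 187 and 119.7 CPM after light and 164 and 225 CPM in the dark. V had 376 and 430.4 CPM in the mutant after light and 423 and 477 CPM in the mutant in the dark, whereas the wild type had 349 and 397 CPM after light and 439 and 480.1 CPM in the dark. S had 330.5, 235, 279 and 264 CPM in the mutant and 240.1, 268, 325 and 269.5 CPM in the wild type. All V libraries were above all S libraries, and all S libraries above all A15 libraries. gsn fell in the mutant in A15 in the dark (−1.51 ± 0.36, adjusted P = 0.00364) and after light (−1.44 ± 0.36, adjusted P = 0.00442). The wild type had −0.48 ± 0.34 in the dark (adjusted P = 0.325) and −0.83 ± 0.35 after light (adjusted P = 0.0778). The value after light was called by DESeq2 (−0.83, adjusted P = 0.0366) and in the fit of all libraries (−0.84, adjusted P = 0.0255). The calls in the mutant were lost without replicate 2 of the dark A15 group (−1.06, adjusted P = 0.0512) and without replicate 1 of the light-exposed A15 group (−1.39, adjusted P = 0.0532), and after light also with library sizes left unscaled (−0.92, adjusted P = 0.0637).

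In A15, the gsn libraries of the mutant were below those of the wild type, without overlap, in the dark and after light. Groups this small can separate without a difference, so the lack of overlap is only described. The mutant had a 2.01-fold lower average in the dark (−1.01 ± 0.42, adjusted P = 0.244) and a log2FC of −0.61 ± 0.42 after light (adjusted P = 0.455), neither past the threshold. Without replicate 1 of the dark mutant, the difference in the dark was called (−1.65, adjusted P = 0.032). In V, where the spread was smaller, the strains differed by −0.04 ± 0.14 in the dark (adjusted P = 0.895) and 0.12 ± 0.14 after light (adjusted P = 0.657).

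gbe, the symbol of the glycogen branching enzyme, was the steadiest of the glycogen genes between stages, and none of its comparisons was called. Its levels in A15 were 273 and 251 CPM after light and 139.7 and 175 CPM in the dark in the mutant, and 475 and 257 CPM after light and 201 and 391 CPM in the dark in the wild type. V ranged between 308 and 402 CPM in the mutant and between 277 and 444 CPM in the wild type. S ranged between 141 and 255 CPM in the mutant and between 223 and 359 CPM in the wild type. In the order of its 10 group means, every neighbouring pair of groups overlapped, but groups further apart did not always. The mutant in dark V (334 to 402 CPM) was above the mutant in S, and the mutant in dark A15 was below the wild type in dark A15, both without overlap. The mutant averages of A15 were below those of the wild type (−0.91 ± 0.44 in the dark, adjusted P = 0.309; −0.55 ± 0.44 after light, adjusted P = 0.528).

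gpn, the symbol used for glycogen phosphorylase, differed widely between libraries of the same group. In V, the mutant had 622 and 724 CPM after light and 472 and 777 CPM in the dark, and the wild type had 1006 and 1334 CPM after light and 1036 and 1201 CPM in the dark. All 4 mutant libraries were below all 4 wild-type libraries. The mutant average was 1.72-fold lower after light (−0.79 ± 0.25, adjusted P = 0.0842) and 1.80-fold lower in the dark (−0.85 ± 0.25, adjusted P = 0.0665), and neither difference passed the test. Both passed it by DESeq2 (−0.79, adjusted P = 0.00508, and −0.84, adjusted P = 0.00245). Leaving out wild-type replicate 1 after light (−0.99, adjusted P = 0.0496) or mutant replicate 2 in the dark (−1.26, adjusted P = 0.0208) also gave a call.

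In S, gpn had 224, 82.3, 317 and 155 CPM in the mutant and 217, 195, 879.5 and 807 CPM in the wild type. The wild-type libraries thus fell into a low pair and a high pair, and the low pair overlapped the mutant (−1.44 ± 0.57, adjusted P = 0.227). A15 had 332 and 311 CPM after light and 493 and 116 CPM in the dark in the mutant, and 288 and 229 CPM after light and 313 and 422 CPM in the dark in the wild type. The dark mutant libraries lay on either side of the wild type, and the log2FC of −0.29 ± 0.58 between the strains in the dark was −1.66 (adjusted P = 0.0275) without mutant replicate 1 and 0.38 (adjusted P = 0.582) without mutant replicate 2. The direction of gpn in dark A15 against S in the mutant changed in the same way, with 0.64 ± 0.67 over all libraries (adjusted P = 0.459) and −0.77 (adjusted P = 0.5) without that replicate 1.

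The number in a library's code went with several of these levels in S, mainly in the wild type. The codes of the S libraries run between 1 and 4. In A15 the dark libraries carry 1 and 2 and the light-exposed libraries 3 and 4, so that in A15 the number and light cannot be told apart. What the numbers stand for is not given in the sources used here. In the wild type, 5 of the 7 genes had S libraries 3 and 4 on one side of libraries 1 and 2 without overlap, as did 63% of the 7322 genes at a mean of 1 CPM or more. In the mutant, 2 of the 7 genes did, and 29.1% of 7180 genes. With only 7 genes, these counts cannot be told apart from the shares over all genes. Unrelated numbers would also separate such pairs for part of the genes, a share that was not computed. The values that follow are therefore a description. tre-1 averaged 0.817 CPM in libraries 3 and 4 and 3.83 CPM in libraries 1 and 2 of the mutant, and 0.465 CPM in libraries 3 and 4 and 3.17 CPM in libraries 1 and 2 of the wild type, which is 4.69-fold and 6.82-fold lower. gnn was higher in libraries 3 and 4, 1.56-fold in the mutant (315 against 202 CPM) and 2.12-fold in the wild type (395 against 186 CPM). gpn was 4.1-fold higher in libraries 3 and 4 of the wild type (843 against 206 CPM), whereas the mutant pairs overlapped (236 against 153 CPM).

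When A15 was set only against the S libraries with the same numbers, a choice made after the data were seen, tre-1 remained called in all 4 comparisons, with a log2FC after light of 8.09 (mutant) and 7.46 (wild type), and in the dark of 6.02 (mutant) and 4.96 (wild type). gpn in the wild type gave −1.72 after light (adjusted P = 0.0384), against −1.02 ± 0.72 with all S libraries (adjusted P = 0.296). In the dark it gave 0.89 (adjusted P = 0.325), against −0.50 ± 0.70 with all S libraries (adjusted P = 0.636), a change of direction. gnn in the mutant after light passed the test in this way (−1.39, adjusted P = 0.0387), and tps-1 in the mutant in the dark no longer did (0.75, adjusted P = 0.109). Between the strains in S, gpn differed by −1.87 in libraries 3 and 4 (adjusted P = 0.123) and −0.38 in libraries 1 and 2 (adjusted P = 0.842).

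**Figure D4:**
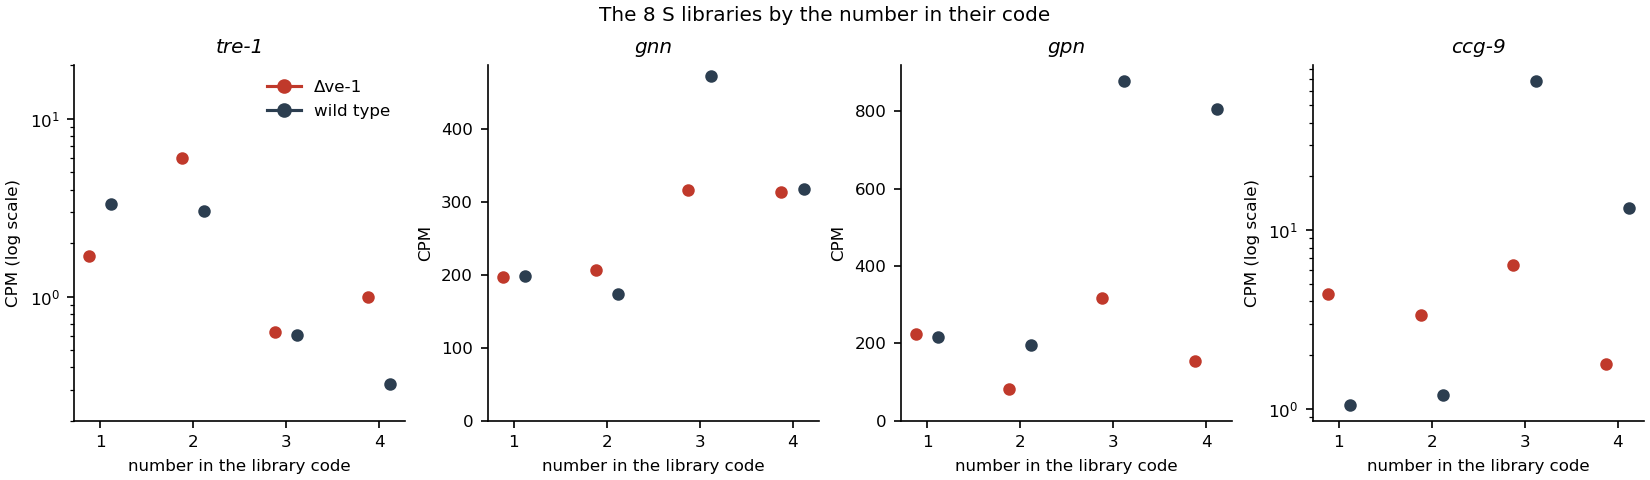
Level of tre-1, gnn, gpn and ccg-9 (NCU09559) in the 8 S libraries by the number in the library code (CPM; log scale for tre-1 and ccg-9, linear from 0 for the others), with each Δve-1 library (red) left of the wild-type library (dark blue) of the same number. tre-1 is lower in libraries 3 and 4 of both strains, and gpn is at 879.5 and 807 CPM in wild-type libraries 3 and 4, against 217 and 195 CPM in wild-type libraries 1 and 2.

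The 7 genes can be set beside each other by their level per kb of gene span, introns included. In dark A15 of the mutant, tps-1 (98.4 CPM per kb), gpn (95.5) and tre-1 (93.7) were the highest, ahead of NCU05041 (54.5), gbe (44), gnn (32.8) and gsn (24.1). In dark A15 of the wild type, gpn was the highest (115 CPM per kb), ahead of gbe (82.6), tps-1 (51.6), gsn (48), gnn (45.8), tre-1 (35.6) and NCU05041 (22.9). In dark V, gpn was the highest and tre-1 the lowest in both strains. The mutant had 196 CPM per kb for gpn, 181 for gnn, 111 for gsn, 103 for gbe, 52.7 for NCU05041, 30.8 for tps-1 and 4.29 for tre-1. In the wild type the same order ran through 351 CPM per kb for gpn, 168 for gnn, 113 for gsn, 107 for gbe, 40.2 for NCU05041, 28.7 for tps-1 and 0.717 for tre-1. In the order of group means, tre-1 separated A15 from the rest: its lowest A15 group, the wild type after light, averaged 83.9 ± 44.8 CPM (SD, n = 2), and its highest group outside A15, the mutant in dark V, averaged 11.4 ± 4.79 CPM (SD, n = 2). The V and S groups of tre-1 all overlapped their neighbour in that order. For gnn, the 4 V groups, between 557 ± 70.3 and 621 ± 51.1 CPM (SD, n = 2), overlapped their neighbours in that order and no group outside V. The 4 V groups of gsn did the same, between 373 ± 33.7 and 459 ± 29.3 CPM (SD, n = 2).

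The genes whose log2 CPM followed each of the 7 most closely over the 24 libraries, among 8263 genes, are given as a description, since stages set most of the likeness. For tre-1 they were NCU05859 (Pearson r of 0.971), NCU05858 (0.966) and acon-3 (0.958). gnn was closest to trp-2 (0.966), NCU08888 (0.961) and arg-1 (0.951), and gsn to NCU06206 (0.966), NCU02480 (0.96) and NCU06311 (0.959). For gpn, gh35-1 (0.947) came first, followed by NCU08069 (0.907) and NCU08330 (0.906). tps-1 was nearest to NCU08895 (0.934), NCU05041 to NCU07445 (0.888), and gbe to NCU09775, with a lower r of 0.802.

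Of the 7 other genes of the pathway (tre-2, ccg-9, gh13-7, emp-1, emp-8, gki-1 and gki-2), more were called in aerial tissue than by strain. The same was true of all genes, of which 27% to 45.8% were called in A15 against S and 0.655% to 10.3% between the strains. emp-8, listed as a hexokinase, had 206 and 278 CPM after light and 285 and 268 CPM in the dark in the A15 mutant, and 74.1 and 94.7 CPM after light and 77.8 and 48.8 CPM in the dark in the A15 wild type. Its V and S libraries were all at 1.51 to 4.41 CPM, far below every A15 library. It rose over S in all 4 comparisons, by a log2FC of 6.72 ± 0.39 after light (adjusted P = 4.88e-08) and 6.94 ± 0.39 in the dark (adjusted P = 4.68e-08) in the mutant, and 4.58 ± 0.36 after light (adjusted P = 6.87e-07) and 4.18 ± 0.35 in the dark (adjusted P = 1.74e-06) in the wild type. Between the strains, dark A15 had a higher level in the mutant (2.11 ± 0.37, adjusted P = 0.0336), and after light the difference was 1.45 (adjusted P = 0.06). emp-1, a hexokinase, and gki-2, a glucokinase, fell in A15 against S in all 4 comparisons, by log2FC values between −2.29 and −1.36 for emp-1 and between −2.30 and −1.54 for gki-2. gki-1, also a glucokinase, rose in 3 of the 4 (mutant 1.66 after light and 1.28 in the dark; wild type 2.35 after light). gh13-7, the debranching enzyme of glycogen, fell in the mutant in the dark (−1.61, adjusted P = 0.0109). tre-2, whose symbol is that of a trehalase, fell in the wild type in the dark (−1.49, adjusted P = 0.0351). In all, 3 of these 7 genes rose and 2 fell in the mutant after light (45.8% of all genes called), and 3 rose and 3 fell in the dark (44.3%). In the wild type, 2 rose and 2 fell after light (32.8%), and 1 rose and 3 fell in the dark (27%).

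In V, 1 of these 7 genes rose and 1 fell in the mutant in each light condition (9.79% of all genes called in the dark, 10.3% after light). The ccg-9 gene (NCU09559) had 38.3 and 42.7 CPM after light and 36.2 and 47.6 CPM in the dark in the mutant, against 69.6 and 102 CPM after light and 83.4 and 89.3 CPM in the dark in the wild type. It fell in the mutant by 1.07 ± 0.20 after light on the log2 scale (adjusted P = 0.0127) and by 1.05 ± 0.20 in the dark (adjusted P = 0.0135). ccg-9 rose in the mutant in A15 over S (4.13 after light, adjusted P = 0.00876, and 2.89 in the dark, adjusted P = 0.0489) and in V over S (3.39, adjusted P = 0.0313). In dark A15 of the mutant, ccg-9 was at 8.71 and 51.2 CPM, far apart. Its mutant S libraries were at 1.78 to 6.36 CPM, and its wild-type S libraries at 1.06 and 1.2 CPM for codes 1 and 2 and 68.1 and 13.3 CPM for codes 3 and 4. None of the 7 was called between the strains in S, and 3 of the 7 rose by light in V in both strains.

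**Figure D5:**
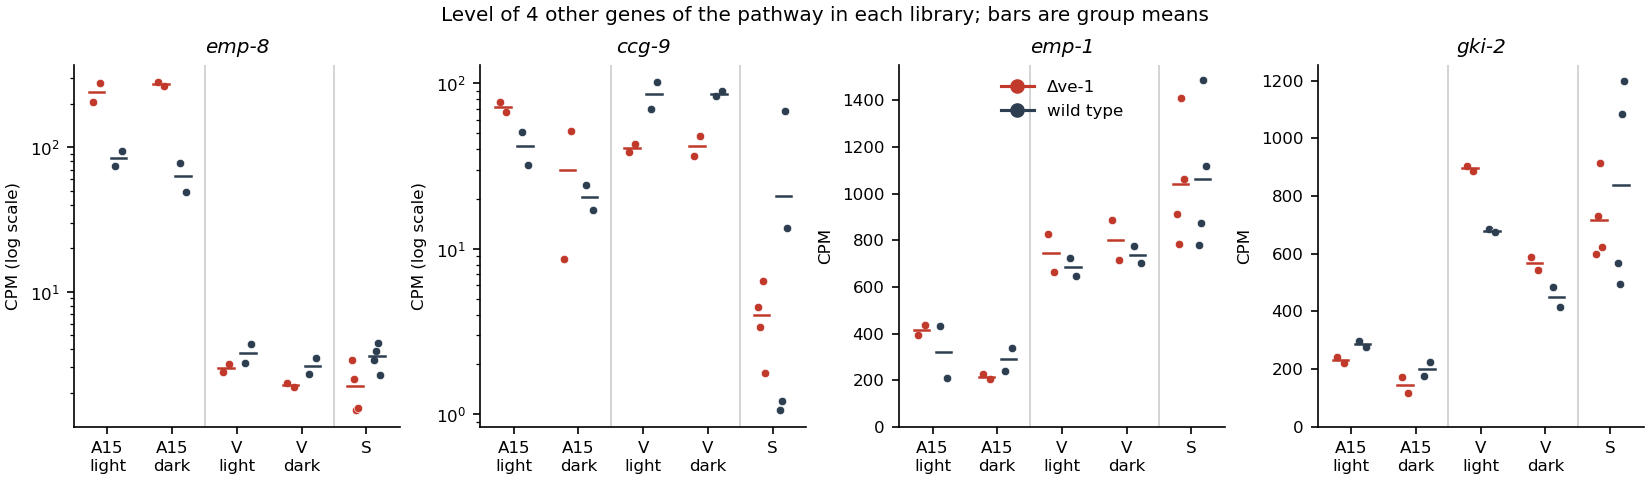
Level of emp-8, ccg-9 (NCU09559), emp-1 and gki-2 in every library (CPM; log scale for emp-8 and ccg-9, linear from 0 for the others), by stage and light, with Δve-1 (red) left of the wild type (dark blue); bars are group means (n = 2, and n = 4 in S). emp-8 is above 48 CPM in A15 and below 5 CPM elsewhere, ccg-9 in V is lower in the mutant than in the wild type, and emp-1 and gki-2 are lower in A15 than in S.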

How the data were processed

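The authors trimmed the reads, mapped them with TopHat2 (version 2.11 in the submitters' processing notes) to the NC12 assembly, and counted them over the exons of merged transcripts, assuming the opposing strand. The deposited values were raw counts of 9758 genes in 24 libraries, with no normalization. Strain, stage, light and replicate came from the labels. Symbols came from RefSeq, which held 9757 of the identifiers.

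Group means were estimated from the counts by quasi-likelihood in edgeR 4.0.16 (limma 3.58.1, R 4.3.3), after TMM scaling and filterByExpr at a minimum count of 10: 8 libraries and 7760 genes for V, 8 and 8193 for A15, 16 and 8239 for comparisons with S, and 24 and 8269 for V against S. Common dispersions were 0.118 in A15 and 0.021 in V. A gene was called at a Benjamini-Hochberg adjusted P under 0.05 over all genes tested. Fold changes are those of the fit. The 7 genes were named in every comparison, the other pathway genes only where called with an absolute log2FC of at least 1, and for each of the 7 the closest 3 genes by Pearson r. The members and lists were chosen with earlier results of these data known. The fitting script was tested on simulated data. Alternatives were RLE scaling, unscaled library sizes, no filter, DESeq2 1.42.0, a replicate block, the study's thresholds (absolute log2FC of at least 2, adjusted P under 0.001), 1 fit of all 24 libraries, and each library left out. Products other than those stated, sequences and exon lengths were not used here.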

Additional observations from a re-analysis of the deposited data

Results flagged for a closer look

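The level of ve-1 in replicate 1 of the mutant in S was 17.3 CPM, far from the other 3 mutant libraries of that stage, which had 1.28, 1.31 and 3.18 CPM, and below the 69.3 to 93.9 CPM of the wild type. This library was the only value of the 7 genes and ve-1 in S, over 16 groups tested, with a gap to its nearest neighbour above the critical value for 4 samples; chance gives such a gap in about 1 of 20 groups. Without it, the same number of the 7 genes was called in A15 against S in the mutant (4 in the dark and 3 after light) and none between the strains in S. In V against S in the mutant, 2 rather than 4 genes were called, since tre-1 (2.15, adjusted P = 0.0838) and gnn (1.15, adjusted P = 0.0882) no longer passed the test of edgeR.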

How the results depend on the processing

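Most log2FC values kept their direction and side of the threshold. Under the settings other than leaving out a library, 385 did, 32 gained a call, 9 lost one and 2 changed direction; with a library left out, 378 did, 11 gained, 30 lost and 5 changed direction. Values below 0.5 on the log2 scale that were never called were not followed (65 of 133), and 44 of them changed sign under some setting.

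Between mutant and wild type in V in the dark, 2 of the 7 genes were called with unscaled library sizes, with DESeq2 and with a replicate block, and 0 at the study's thresholds or in the fit of all 24 libraries. In V after light, 2 were called with DESeq2 and the block, and 0 at those thresholds or in that fit. In A15 in the dark, DESeq2 called 2 and the fit of all libraries 1. For light in V, the block called 1 in the mutant; in the wild type, DESeq2 and the block called 2, and the study's thresholds and the fit of all libraries 0. At the study's thresholds, 1 gene (tre-1) was called in A15 against S in each strain, in the dark and after light, and 0 in V against S in each strain. The fit of all libraries called 5 in the mutant in A15 after light against S, and the block called 4 in the wild type in V against S. For gpn in A15 in the dark against S in the wild type, the direction changed with the block (0.56) and with S libraries of codes 1 and 2 only (0.89); the cause was not tested.

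With 1 library left out, the number of the 7 genes called ranged between 0 and 2 for the strains in V in each light condition, for light in V in the wild type and for V against S in the wild type. It ranged between 0 and 4 for the strains in A15 in the dark, 1 and 3 for A15 after light against S in the wild type, and 0 and 3 for V against S in the mutant. The log2FC of gpn ranged between −1.66 and 0.38 for the strains in A15 in the dark, −0.77 and 1.33 for A15 in the dark against S in the mutant, −0.13 and 1.92 for the interaction with light in A15, and −0.27 and 1.83 for the interaction with stage in the dark. That of gbe ranged between −0.086 and 0.76 for A15 after light against S in the wild type.

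Same-numbered replicates correlated in their deviations in V (0.363 to 0.476), where each group has only 2 libraries, and not throughout in S (−0.386 to 0.65) or A15 (−0.227 to 0.177); since nothing in the labels ties equal numbers together, they were taken to share only a number. With the block, gpn was called between the strains in V in the dark (−0.88, adjusted P = 0.000298) and after light (−0.77, adjusted P = 0.000882), and gnn lost its call in A15 after light against S in the wild type (−0.86, adjusted P = 0.19). Over all genes, the block called 1988 and 1874 between the strains in V in the dark and after light, 1833 and 2025 by light in the mutant and the wild type, and 1867 and 1582 in V against S in the mutant and the wild type. Crossing the numbers of the wild-type A15 libraries, chosen after the data were seen, called 89 genes by light, against 72 with the numbers as given and 22 with no block, none of them among the 7. DESeq2 called 405 genes between the strains in S, 851 in A15 in the dark and 1044 in A15 after light, and the fit of all libraries called 39 in V in the dark and 36 after light. At the study's thresholds, between 0 and 53 genes were called between the strains and between 500 and 1169 in A15 against S.

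Unscaled library sizes moved the median log2FC over all genes in A15 after light against S to 0.544 for the mutant (0.0422 with TMM) and 0.639 for the wild type (0.0541 with TMM), and in the dark to 0.359 for the mutant (0.103) and 0.437 for the wild type (0.0162). After light in the wild type, 2648 genes then rose and 443 fell, against 1624 and 1079 with TMM. Of the 7 genes, gnn lost its call there (−0.78, adjusted P = 0.213), tps-1 gained one in both strains (mutant 1.16, wild type 1.19) and gbe in the wild type (1.03), while tre-1 kept its calls. In all, 20 of 70 group means moved by more than their SD. The 2 libraries of most groups and the dispersion of A15 limit what could be called.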
